A study of Mus musculus with 9 samples.

Results

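Enzymes that modify and clear foreign chemicals were followed in mouse olfactory mucosa under systemic dexamethasone, a synthetic glucocorticoid. The set held 53 genes, chosen by name as enzymes of this kind in sustentacular and glandular cells. A probe named for the gene was found for 44 of the 53, among 23631 features in all, and where a gene had several probes the brightest was used. The 9 genes with no probe under their name, Cyp2a5, Cyp2a4, Cyp4a10, Por, Ugt2a1, Ugt1a6a, Gsta1, Gsta2 and Sult1c1, were not analysed here. Cyp2c44 was measured under its current RefSeq symbol, Cyp2c23.

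The animals were wild-type male C57BL/6 mice, 6 to 8 weeks old, 27 in all and 9 in each of 3 groups. Control mice received saline for 2 weeks, WK2 mice received dexamethasone each day for 2 weeks at 1 mg/kg into the peritoneum, and D1 mice were given dexamethasone for 1 day; the labels state the dose and route once, beside the 2-week treatment, and the dose was read as 1 mg/kg for both. From each group 3 samples entered the arrays, picked for high expression of Omp, the olfactory marker protein of mature neurons, so levels tied to neuronal content were part of the selection. D1 and control therefore also differed in how long the injections lasted, and no group received saline for 1 day. The labels do not say that each sample came from a separate animal, so the p-values reflect how these arrays varied, and that variation may be only technical. The value of a probe is a background-subtracted brightness on a linear scale, and probe brightness is no measure of one gene's level against another's.

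Xenobiotic metabolism runs in steps. Phase I enzymes, chiefly the cytochrome P450s, add or uncover a reactive group, and phase II enzymes join that group to glucuronic acid, glutathione or sulfate so that the product can leave the cell. In the nose these enzymes are concentrated in the sustentacular cells that support the neurons and in Bowman's glands beneath them, where they are known to act on odorants and inhaled toxicants. Cyp1a1 and other genes of the pathway are textbook targets of AHR, a receptor that binds aromatic ligands and sits on DNA at the xenobiotic response element, while NRF2 and MAF proteins act through the antioxidant response element.

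Promoter sequences are shown for 4 enzymes: Cyp1a1, which passed the test, its chromosome neighbour Cyp1a2, which did not, and Aox4 and Gstp1, whose groups did not overlap after 2 weeks. Groups did not overlap for 10 of the 44 enzymes higher and 2 lower in WK2. Of all features 23.8% were higher and 13.8% lower without overlap, so lack of overlap does not single these enzymes out. The others of these enzymes, Cbr2 among them, are not shown. The promoters shown therefore do not stand for the enzymes without overlap. Each is the 250 bases before the annotated transcription start, 5′ to 3′ on the gene's own strand, from RefSeq's GRCm38.p6 table. Capitals mark matches on either strand to GCGTG (the xenobiotic response element core), TGANTCAGC (an antioxidant element), GNACA and TGTNC set 3 bases apart (a glucocorticoid response element), TTANGTAA (a D-box) or CACGTG (an E-box). No motif spelled without N contains another, and the motifs were searched separately. The Cyp1a1 window is chr9:57697363-57697612 on the plus strand, the Cyp1a2 window is chr9:57683656-57683905 on the minus strand, the Aox4 window is chr1:58210147-58210396 on the plus strand and the Gstp1 window is chr19:4037913-4038162 on the minus strand.
Cyp1a1: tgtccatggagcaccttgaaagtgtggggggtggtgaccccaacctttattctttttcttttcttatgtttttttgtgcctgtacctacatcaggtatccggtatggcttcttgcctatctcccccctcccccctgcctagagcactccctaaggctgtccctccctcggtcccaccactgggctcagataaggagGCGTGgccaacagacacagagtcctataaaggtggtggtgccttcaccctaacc
Cyp1a2: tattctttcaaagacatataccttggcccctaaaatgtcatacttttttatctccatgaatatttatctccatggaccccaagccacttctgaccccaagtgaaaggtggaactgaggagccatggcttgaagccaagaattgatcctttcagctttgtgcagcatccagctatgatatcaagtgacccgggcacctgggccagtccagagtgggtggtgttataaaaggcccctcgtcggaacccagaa
Aox4: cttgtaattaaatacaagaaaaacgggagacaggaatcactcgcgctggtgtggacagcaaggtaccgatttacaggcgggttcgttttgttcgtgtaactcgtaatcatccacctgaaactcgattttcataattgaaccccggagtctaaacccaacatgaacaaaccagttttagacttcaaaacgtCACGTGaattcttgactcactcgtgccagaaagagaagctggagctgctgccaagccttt
Gstp1: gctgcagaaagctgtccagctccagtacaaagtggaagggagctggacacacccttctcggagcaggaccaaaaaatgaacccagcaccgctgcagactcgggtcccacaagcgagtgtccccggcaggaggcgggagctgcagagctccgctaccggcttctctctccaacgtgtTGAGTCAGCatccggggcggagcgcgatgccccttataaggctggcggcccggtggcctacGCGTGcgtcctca

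In the Cyp1a1 window GCGTG began 54 bases before the start, and the Cyp1a2 window held none of the 5 motifs. Sequence farther upstream was not searched, so motifs farther from the start of either gene would be missed. Aox4 had CACGTG beginning 60 bases before its start, while Gstp1 had TGAGTCAGC beginning 74 bases and GCGTG beginning 13 bases before its start. Such short motifs are common or rare by length: within 300-base windows that also take in the first 50 bases of the transcript, GCGTG occurred in 32.4% of 32851 promoters, TGANTCAGC in 1.19%, CACGTG in 7.15%, TTANGTAA in 2.32% and the glucocorticoid response element in 0.475%. The RefSeq table held 36 of the 44 measured enzymes, counted by gene, a gene matching if any of its promoters did. The percentages over all promoters count each promoter, so the units differ. GCGTG was found for 10 (27.8%): Cyp1a1, Gstp1, Adh7, Aox1, Aox3, Cyp1b1, Cyp2b10, Gstm1, Gstm5 and Sult1d1. Apart from Cyp1a1 and Gstp1, their WK2 differences from control ran from -0.02 to 0.43. CACGTG was found for 3 (Adh1, Aox4 and Cyp2j6) and TTANGTAA for 2 (Ces1g and Sult1a1). TGANTCAGC was found for 1 (Gstp1) and the glucocorticoid response element for 0. A match is a run of letters and does not show that a factor binds there.

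After 2 weeks of dexamethasone 1 of the 44 enzymes passed the test against the saline controls: Cyp1a1 fell by 0.97 ± 0.15 on the log2 scale (SE; limma, Benjamini-Hochberg adjusted p = 0.0352), or 1.95-fold. Over all features 1.61% passed in either direction, 0.432% upward and 1.18% downward. By the fitted difference 30 enzymes were higher and 14 lower (68.2% higher, with 62.7% of all features), with a median of 0.21, where the median of all features was 0.14, and 26 of the 44 lay above that overall median. At an unadjusted p under 0.05, 10 enzymes and 29.7% of all features were counted. The groups did not overlap for 10 enzymes that were higher in WK2 and 2 that were lower, against 23.8% of all features higher and 13.8% lower without overlap. The enzymes' shares, 10 and 2 of 44, were thus near the background or under it.

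After 1 day of dexamethasone, 0 of the 44 enzymes passed the test, as did 0% of all features (limma). At an unadjusted p under 0.05, 2 enzymes (Cbr2 upward and Cyp1a1 downward) and 2% of all features were counted. The enzymes divided into 21 higher and 23 lower (47.7% higher, with 56.6% of all features), with a median of -0.04 against 0.03 for all features. Groups did not overlap for Cbr2 and Gstm1, higher in D1, and for Cyp1a1, Fmo1, Sult1a1 and Gstp1, lower in D1, where 4.92% and 5.19% of all features did not overlap in those directions. Both dexamethasone groups were set against the same 3 control arrays, so both sets of differences share the error of those arrays.

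**Figure D1:**
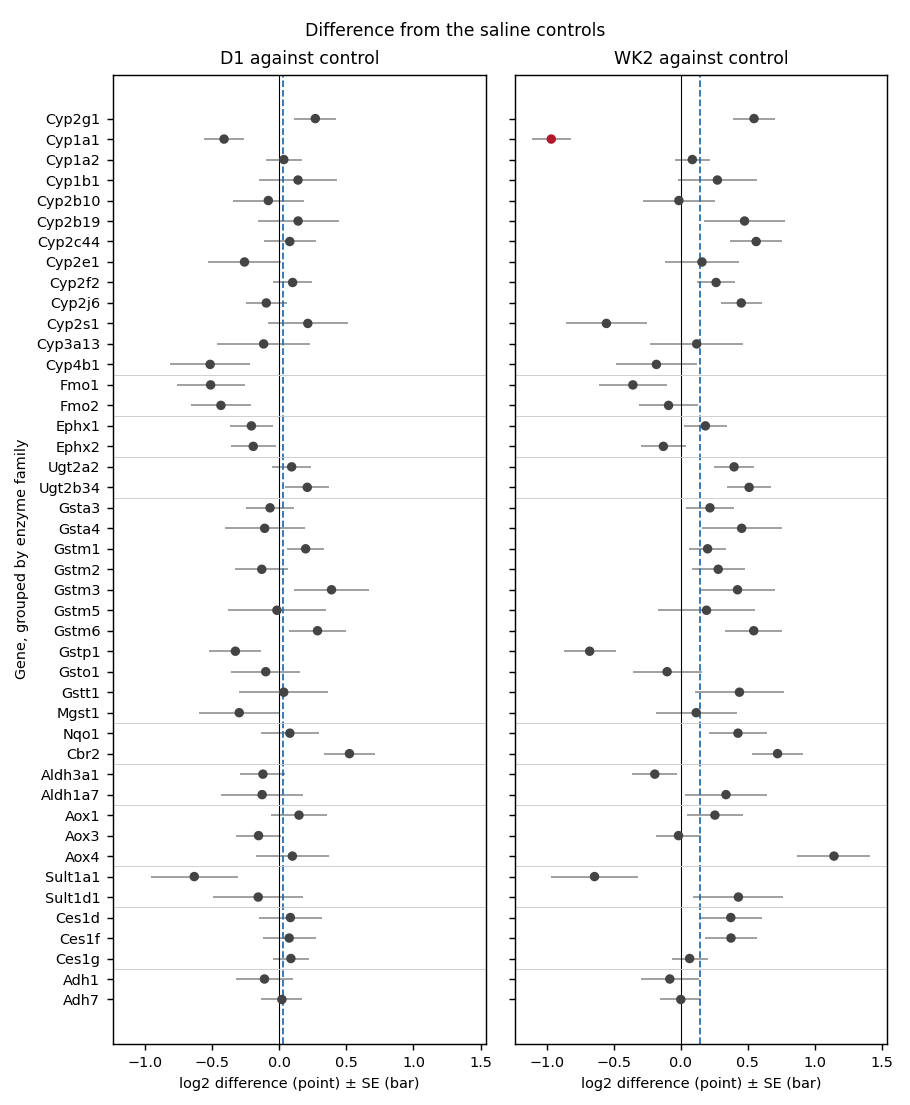
Fitted log2 differences from the saline controls (points) with their standard errors (bars) for the 44 enzymes, D1 on the left and WK2 on the right; the dashed line is the median of all features and red marks an adjusted p under 0.05. Only Cyp1a1 is red, at -0.97 in WK2, and Aox4 lies farthest to the right at 1.14.

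WK2 set directly against D1 gave 0 enzymes past the test, where 0.0931% of all features passed; 6 enzymes and 19.2% of features had an unadjusted p under 0.05. Here 36 enzymes were higher in WK2 and 8 lower, with a median of 0.25 against 0.10 for all features, of which 61.6% were higher. Without WK2 replicate 3 these medians were 0.10 and 0.07. Aox4, Cyp2j6, Cyp2c44, Ephx1, Ugt2a2 and Cyp2g1 were higher without overlap and Cyp1a1 and Cyp2s1 lower, with a background of 18.7% and 12.6%. The smallest adjusted p belonged to Aox4 (limma, adjusted p = 0.141).

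Of the 44 enzymes 13 were P450s, the haem enzymes of phase I oxidation. Cyp1a1, the oxidase of polycyclic aromatics that AHR ligands induce, had intensities of 8888, 8624 and 8268 in the controls, 6192, 7633 and 5658 in D1, and 4298, 4340 and 4477 in WK2. Every D1 array lay below every control array and above every WK2 array, and the WK2 arrays were close to each other (mean 4372 ± 93.2, SD, n = 3, against 8593 ± 311 in the controls). The D1 difference from control was -0.41 ± 0.15 (SE) and did not pass (limma, adjusted p = 1), nor did WK2 against D1 at -0.55 ± 0.15 (limma, adjusted p = 0.143). Across 22 alternative settings the WK2 difference ran from -1.07 to -0.89, with adjusted p from 0.0089 to 0.148. Several of these settings, such as leaving out a D1 array, can change only the p-value and not the difference. Leaving out any single array other than WK2 replicate 1 raised the adjusted p to between 0.0566 and 0.148.

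Cyp1a2, which lies beside Cyp1a1 on chromosome 9 and oxidises aromatic amines, gave 252717, 232670 and 248371 in the controls, 258072, 243246 and 249374 in D1, and 245225, 246059 and 288837 in WK2. The groups overlapped, and the WK2 difference was 0.09 ± 0.13 (SE; limma, adjusted p = 0.672). A ratio of the pair within each array is free of any single scaling factor of that array, though not of normalizations that treat bright and dim probes differently. The log2 ratio of Cyp1a1 to Cyp1a2 was -4.82, -4.75 and -4.90 in the controls, -5.37, -4.99 and -5.45 in D1, and -5.82, -5.81 and -6.00 in WK2. The 3 groups did not overlap in this ratio: WK2 was lower than control by 1.05 and D1 lower by 0.45 (two-sided exact permutation p = 0.1 for each, the smallest that 3 against 3 allows). Under quantile normalization the WK2 ratio was lower than control by 0.73 without overlap, and the D1 ratio by 0.35 with overlap; under cyclic loess the differences were -0.71 and -0.41, both without overlap. The ratio was chosen after the intensities had been seen. Cyp1b1, of the same CYP1 family, was spread over 1450 to 3703 in D1 alone and had a WK2 difference of 0.27 ± 0.29 (SE).

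The AHR pathway's own genes are background for Cyp1a1. Ahr, the receptor, differed by 0.21 in WK2 (limma, adjusted p = 0.361), Arnt, its DNA-binding partner, by -0.07 and Ahrr, the AHR repressor that is itself a target, by 0.12, and none passed. Tiparp, another AHR target, was 3337, 4433 and 3282 in the controls, 3869, 4351 and 3274 in D1, and 5004, 5254 and 5049 in WK2. Its WK2 arrays were all above the controls, in the opposite direction to Cyp1a1, at 0.48 ± 0.17 (SE; limma, adjusted p = 0.105).

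**Figure D2:**
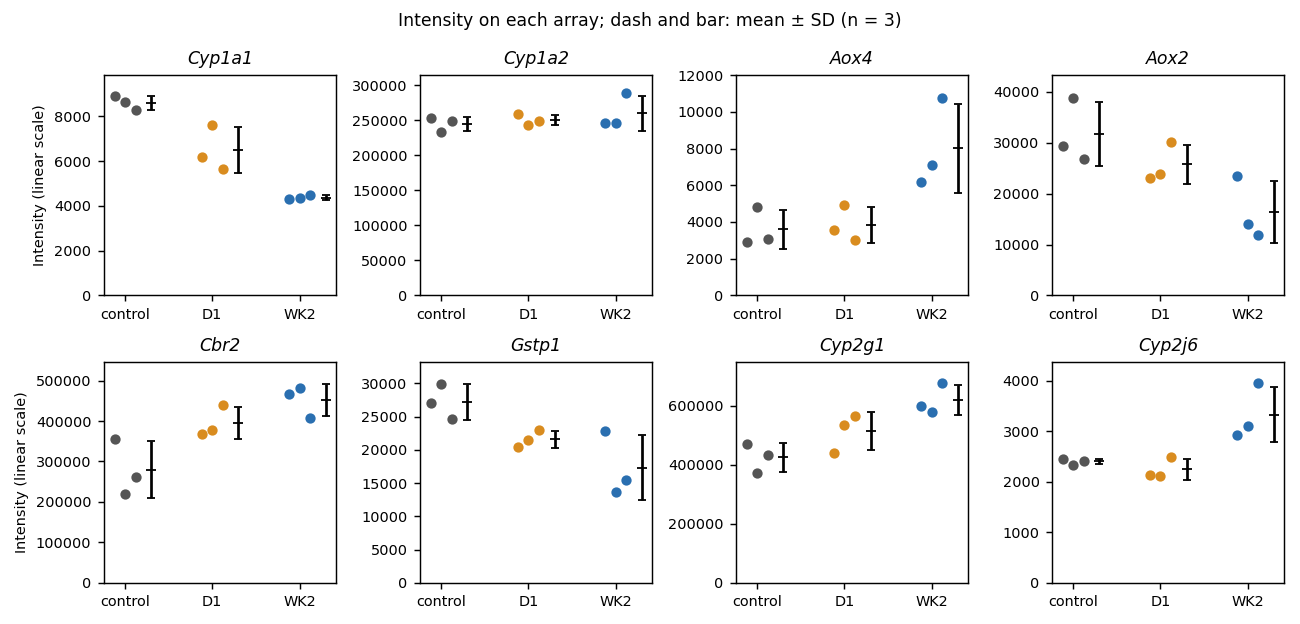
Intensity (linear scale, vertical) on each array (points) for 7 of the enzymes and Aox2, with the group mean and SD (n = 3) beside the points, every axis starting at 0. Cyp1a1 steps down from control to D1 to WK2 without overlap while Cyp1a2 overlaps, and Aox4 and Aox2 lie in opposite directions in WK2.

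Cyp2g1, a P450 known for its near restriction to olfactory mucosa, gave 469440, 373325 and 432992 in the controls, 440433, 532938 and 564676 in D1, and 599963, 579680 and 677700 in WK2. All WK2 arrays were above all others, and the WK2 difference of 0.55 ± 0.16 (SE) did not pass (limma, adjusted p = 0.0745). Cyp2f2, which oxidises naphthalene and is abundant in airway and nose, gave 474535, 396789 and 424460 in the controls, 407966, 473142 and 508579 in D1, and 525569, 495387 and 529454 in WK2. Its WK2 arrays lay above the controls and overlapped D1, at 0.26 ± 0.14 (SE; limma, adjusted p = 0.237). These directions depend on the scaling: quantile normalization gave -0.03 for Cyp2g1 and -0.27 for Cyp2f2, and cyclic loess gave 0.18 and -0.09.

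Cyp2g1 and Cyp2f2 are among the brightest probes on the array, where most features were higher in WK2. Of the 50 brightest features 46 were higher in WK2 than in control, with a median of 0.43. The 5 enzymes in that band, Cyp2g1, Cyp2f2, Cbr2, Ugt2a2 and Cyp1a2, were all higher under the values as deposited, with a median of 0.40, but under quantile normalization Cyp2g1, Cyp2f2 and Cyp1a2 (-0.19) were lower. For ranks 51 to 500, 308 of 450 features were higher with a median of 0.24, and 5 of the 6 enzymes there were higher, with a median of 0.28. For ranks 501 to 5000, 2246 of 4500 features were higher with a median of -0.00, and 6 of the 17 enzymes there were higher, with a median of -0.02. Among the dimmer features, ranks 5001 to 23631, the medians were 0.16 for all and 0.40 for 16 enzymes, 14 of them higher. The part of the brightness trend in these enzymes' differences was not tested.

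**Figure D3:**
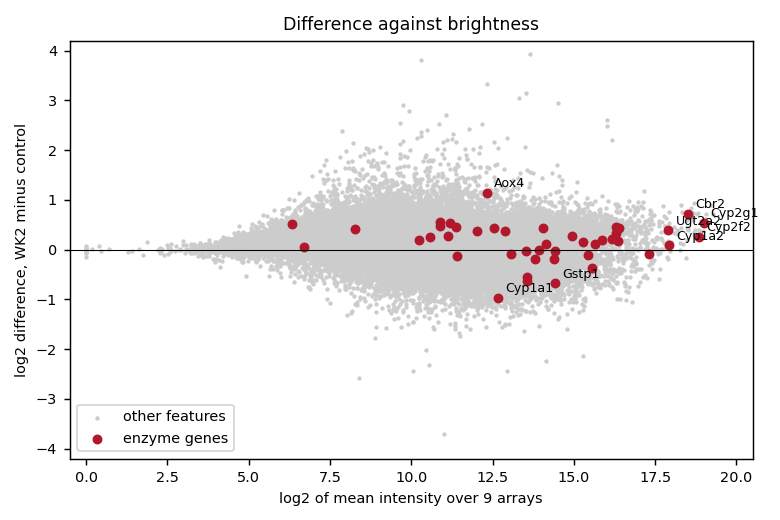
Log2 difference of WK2 from control (vertical) against the log2 mean intensity over the 9 arrays (horizontal) for all features in grey and the 44 enzymes in red. The 5 brightest enzymes lie between 0.09 and 0.72 at the right end, where 46 of the 50 brightest features are above 0, while Cyp1a1 lies below the grey mass's centre at mid brightness.

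Cyp2j6, an arachidonate and drug oxidase, gave 2451, 2338 and 2414 in the controls, 2135, 2120 and 2485 in D1, and 2929, 3096 and 3953 in WK2. The WK2 arrays were above all others, at 0.45 ± 0.15 (SE; limma, adjusted p = 0.0999) against control. Cyp2c44, an arachidonate epoxygenase, gave 1782, 1322 and 1638 in the controls, 1415, 1929 and 1672 in D1, and 2011, 2171 and 2929 in WK2. It too was highest in the WK2 arrays without overlap, at 0.56 ± 0.19 (SE; limma, adjusted p = 0.102), and its second, dimmer probe had 344, 385 and 640 in WK2 against 320, 254 and 317 in the controls.

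Cyp2s1, a P450 of epithelia, gave 12366, 14778 and 10789 in the controls, 12302, 14002 and 17830 in D1, and 10876, 11349 and 4997 in WK2. WK2 lay below D1 without overlap (-0.77 ± 0.30, SE; limma, adjusted p = 0.222) and overlapped the controls, and WK2 replicate 3 was far below the other WK2 arrays. Cyp4b1, which activates furans and aromatic amines, gave 14835, 25204 and 11335 in the controls, 14142, 7782 and 13120 in D1, and 14088, 13752 and 14951 in WK2. Controls spanned the values of the other groups but for one D1 array. The remaining P450s, Cyp2b10, Cyp2b19, Cyp2e1 and Cyp3a13, had WK2 differences from -0.02 to 0.47 and overlapped the controls.

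**Figure D4:**
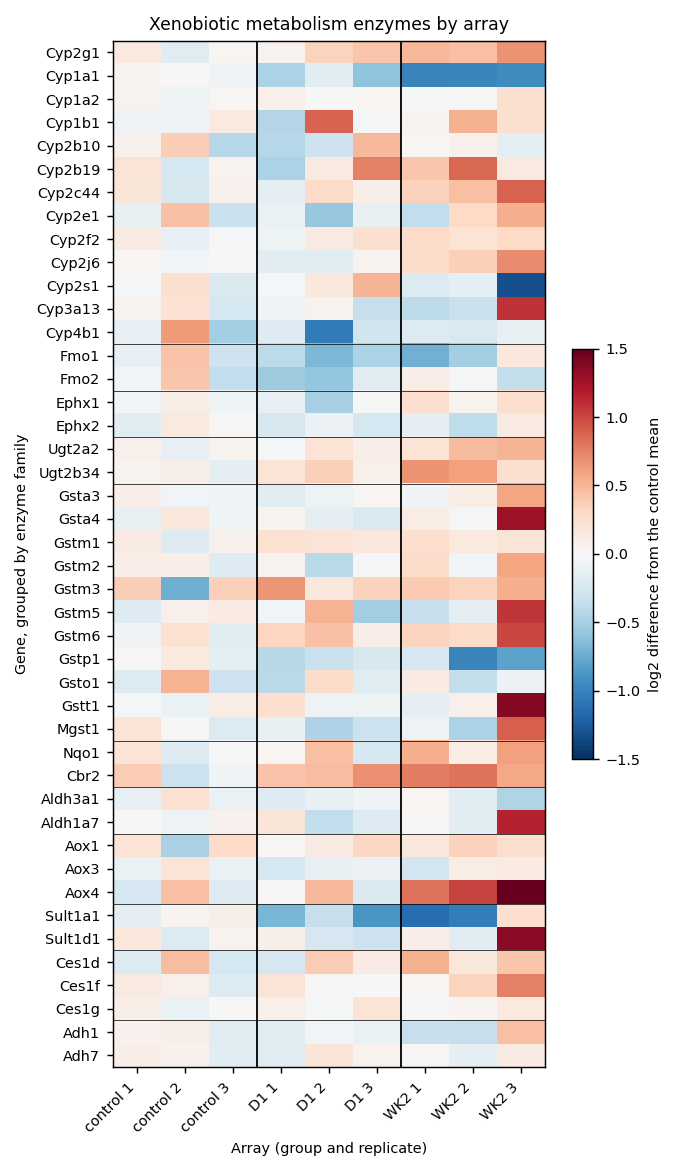
Log2 difference of each array from the control mean (colour, from blue for lower to red for higher) for the 44 enzymes, grouped by family, with the 9 arrays as columns. Cyp1a1 is blue in every D1 and WK2 array, and WK2 replicate 3 holds most of the darkest red cells.

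The flavin monooxygenases oxidise nitrogen and sulfur. Fmo1 gave 52289, 76397 and 45791 in the controls, 43203, 35659 and 40874 in D1, and 34398, 39950 and 63137 in WK2. D1 lay below the controls without overlap (-0.51 ± 0.25, SE; limma, adjusted p = 1), and WK2 overlapped both groups. Fmo2 gave 9308, 12736 and 7374 in the controls, 6567, 6360 and 8417 in D1, and 10226, 9430 and 7478 in WK2. Its groups overlapped, at -0.44 ± 0.22 (SE) in D1 and -0.09 ± 0.22 in WK2. Ephx1, the microsomal hydrolase that opens the epoxides P450s make, gave 81483, 89391 and 80021 in the controls, 76638, 58938 and 83676 in D1, and 99594, 86599 and 98735 in WK2. WK2 lay above D1 without overlap (0.39 ± 0.16, SE; limma, adjusted p = 0.238) and overlapped the controls, while Ephx2, the soluble hydrolase, overlapped in both comparisons.

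Aox4 had the largest fitted difference of the 44 in WK2. It is one of 4 aldehyde oxidases, molybdenum enzymes that oxidise aldehydes and aromatic heterocycles, whose genes lie side by side on chromosome 1. Its intensities were 2922, 4797 and 3060 in the controls, 3559, 4912 and 3013 in D1, and 6192, 7095 and 10729 in WK2. All WK2 arrays were above all others, and D1 overlapped the controls. The difference of 1.14 ± 0.27 (SE), 2.21-fold, did not pass at the set threshold (limma, adjusted p = 0.0579), and over 22 alternative settings it ran from 0.91 to 1.37 with adjusted p from 0.0195 to 0.148.

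Aox2, the neighbouring aldehyde oxidase, carries the older alias Aox3l1 and was not counted among the 44. The list of enzymes gives that alias for Aox4, whereas RefSeq holds both as separate genes, so Aox4 was read by its own gene ID. With Aox2 in place of Aox4 the member's WK2 difference would be -0.99 rather than 1.14, the median over the 44 would be 0.20 and 1 enzyme would still pass. Aox2 gave 29369, 38764 and 26865 in the controls, 23104, 23953 and 30230 in D1, and 23422, 13964 and 11801 in WK2. Its WK2 arrays lay below the controls, at -0.99 ± 0.26 (SE; limma, adjusted p = 0.0633), in the direction opposite to Aox4. Within arrays, the log2 ratio of Aox4 to Aox2 was -3.31, -3.00 and -3.11 in the controls, -2.68, -2.27 and -3.31 in D1, and -1.91, -0.97 and -0.14 in WK2. WK2 was higher than control by 2.13 without overlap (two-sided exact permutation p = 0.1, the smallest possible), and by 2.17 under quantile normalization, a ratio likewise chosen after the values had been seen. Aox3, between Aox1 and Aox4 in the cluster, and Aox1 overlapped the controls, at -0.02 ± 0.17 and 0.25 ± 0.21 (SE). Because these paralogs are similar, cross-hybridisation between their probes was not tested.

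Cbr2, the lung-type carbonyl reductase that reduces ketones and aldehydes, gave 356321, 219771 and 262281 in the controls, 367032, 377070 and 440205 in D1, and 466556, 482722 and 408007 in WK2. Every D1 and WK2 array was above every control array, by 0.52 ± 0.19 (SE) in D1 (limma, adjusted p = 1) and 0.72 ± 0.19 in WK2 (limma, adjusted p = 0.0645). The WK2 difference kept its sign in every alternative run and was smallest, at 0.21, under quantile normalization. Nqo1, the quinone reductase and NRF2 target, gave WK2 values of 7706, 5716 and 8125 that overlapped the controls at 4611 to 6067.

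Aldh1a7, a cytosolic aldehyde dehydrogenase, gave 74718, 69677 and 77058 in the controls, 83853, 56940 and 64352 in D1, and 74601, 65806 and 164385 in WK2. WK2 replicate 3 stood alone, and the groups overlapped. Adh7, the class IV alcohol dehydrogenase that oxidises retinol, gave 16603, 16195 and 13977 in the controls, 13745, 17637 and 16131 in D1, and 15737, 14113 and 16887 in WK2. Its values lay in 1 range in all groups, with a WK2 difference of -0.00 ± 0.15 (SE). Aldh3a1, Adh1 and the carboxylesterases Ces1d, Ces1f and Ces1g, which cleave esters, overlapped the controls in WK2, with differences from -0.19 to 0.37.

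In phase II, Ugt2a2, a glucuronosyltransferase known from olfactory mucosa, gave 229067, 199499 and 224857 in the controls, 213574, 249988 and 233010 in D1, and 250807, 302447 and 308896 in WK2. WK2 was above both other groups without overlap, at 0.40 ± 0.15 (SE; limma, adjusted p = 0.116) against control, and 0.12 under quantile normalization. Ugt2b34, of the family's other branch, was dim at 63, 66 and 48 in the controls, 75, 89 and 65 in D1, and 123, 116 and 78 in WK2. WK2 lay above the controls, at 0.51 ± 0.16 (SE; limma, adjusted p = 0.0891), and at this brightness the value depends on the constant of 50 added before taking logs: it was 0.69 with 16 and 0.12 with 500.

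Glutathione transferases were the second largest family, with 11 genes measured, 9 higher and 2 lower in WK2 by the fitted difference and none past the test. The count rested on WK2 replicate 3: the arrays had 6, 5 and 9 of the 11 above the control mean, with medians of 0.11, -0.02 and 0.59. Gstp1, the pi-class enzyme, gave 27030, 29890 and 24608 in the controls, 20359, 21525 and 22917 in D1, and 22798, 13667 and 15449 in WK2. All D1 and WK2 arrays were below all controls, by -0.33 ± 0.19 (SE) in D1 (limma, adjusted p = 1) and -0.68 ± 0.19 in WK2 (limma, adjusted p = 0.0731). Near-identical Gstp genes exist in the mouse, so its probe may read more than one of them. Gstm6, of the mu class, had WK2 values of 2383, 2299 and 3826 above control values of 1659 to 2205 (0.54 ± 0.21, SE; limma, adjusted p = 0.131).

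Gstm1, the best-known mu-class enzyme, gave 1203, 956 and 1156 in the controls, 1297, 1278 and 1229 in D1, and 1323, 1225 and 1264 in WK2. Both dexamethasone groups were above the controls by 0.20 ± 0.14 (SE), a difference close to its error. Gsta3, of the alpha class, gave 75485, 68473 and 67681 in the controls, 62859, 66846 and 72097 in D1, and 67749, 76234 and 106292 in WK2, with overlap throughout. Gstm2 gave 31820, 31640 and 25846 in the controls, 30616, 22361 and 28937 in D1, and 35972, 28836 and 44765 in WK2, again with overlap. Gsta4, Gstm3, Gstm5, Gstt1, Mgst1 and Gsto1 overlapped the controls too, with WK2 differences from -0.10 to 0.45.

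Sult1a1, the phenol sulfotransferase, gave 14131, 15979 and 16452 in the controls, 9633, 12181 and 8420 in D1, and 6979, 7516 and 18424 in WK2. D1 lay below the controls without overlap (-0.63 ± 0.33, SE; limma, adjusted p = 1). In WK2 a pair of arrays lay lower still and replicate 3 lay above every control array, so the group difference of -0.64 ± 0.33 averages values on both sides. Sult1d1, an amine sulfotransferase, had WK2 values of 81633, 68093 and 194345 against controls of 66040 to 84945.

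WK2 replicate 3 stood apart in this way for a group of enzymes. Against the mean of the other WK2 arrays it was more than 1 log2 unit higher for 8 of the 44, which is 18.2%, where 2.84% of all features were that much higher and 2.97% that much lower. These were Cyp3a13 at 1.45, Gstt1 at 1.41, Sult1d1 at 1.38, Sult1a1 at 1.34, Gstm5 at 1.31, Aldh1a7 at 1.23, Gsta4 at 1.23 and Mgst1 at 1.17, and Cyp2s1 was lower, at -1.15. On each of the other 8 arrays 0 or 1 enzyme lay more than 1 unit from the mean of its group's other arrays. Of all features 0.817% to 4.19% lay that far out on those arrays, and 5.81% on WK2 replicate 3, the most of any array. The median of the 44 relative to the control mean was 0.04, 0.07 and 0.36 on the WK2 arrays, and -0.09, -0.01 and -0.03 on the D1 arrays. Without WK2 replicate 3 the median WK2 difference of the enzymes was 0.03, with 0.10 for all features, which put the enzymes below the overall median.

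**Figure D5:**
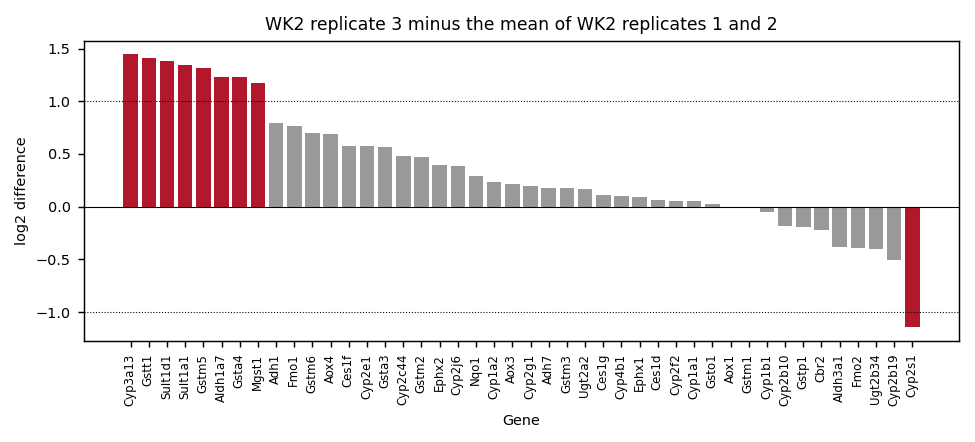
Log2 difference between WK2 replicate 3 and the mean of the other WK2 arrays (bars) for the 44 enzymes in order of size, with dotted lines at 1 and -1. The 8 red bars above 1 run from Cyp3a13 at 1.45 to Mgst1 at 1.17, and the red bar below -1 is Cyp2s1 at -1.15.

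Levels in whole mucosa mix the amount of each cell type with the RNA per cell, and fewer cells of a type cannot be told apart from less RNA per cell. Markers of the cells that hold these enzymes were read beside them. Of 11 sustentacular markers 10 had a probe, 5 were higher and 5 lower in WK2 with a median of 0.01 and none past the test, and Krt8 was listed at or near 0 on every array. Their median deviation from the control mean, taken array by array, ran from -0.10 to 0.07 in the controls, -0.03 to 0.15 in D1 and -0.16 to 0.04 in WK2. Hes1, a Notch effector, was 6003, 7458 and 5695 in the controls, 6637, 5651 and 7065 in D1, and 4387, 3905 and 2516 in WK2 (-0.85 ± 0.22, SE; limma, adjusted p = 0.0631), while Ermn, a sustentacular cytoskeletal gene, was at 0.47 ± 0.17 (limma, adjusted p = 0.109).

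Of 12 gland markers 11 had a probe, 6 were higher and 5 lower in WK2 with a median of 0.27 and none past the test, and the medians by array ran from -0.15 to 0.20 in the controls, -0.06 to 0.25 in D1 and 0.17 to 0.50 in WK2. Scgb1c1, a secretoglobin, lay above the controls in WK2 (0.72 ± 0.16, SE; limma, adjusted p = 0.0547) and Bpifb4, a secreted lipid-binding protein, below (-1.01 ± 0.23; limma, adjusted p = 0.0551). Of 8 neutrophil markers 6 were higher and 2 lower in WK2 with a median of 0.47 and none past the test. They varied from array to array, with medians from -1.19 to 1.37 within the controls alone. The medians ran from -0.175 to 1.68 in D1 and were 1.01, 0.38 and 0.03 on the WK2 arrays. S100a8 and Retnlg, of smallest p among them, were at -0.44 ± 0.19 and 1.48 ± 0.68 (limma, adjusted p = 0.164 and 0.177).

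Other cell types of the mucosa and its surroundings were read in the same way. Of 8 respiratory markers 7 were higher in WK2, with a median of 0.40 and none past the test. Their medians by array ran from -0.04 to 0.01 in the controls and were 0.31, 0.28 and 0.49 in WK2. Replicate 3 was highest, as for the enzymes, but the medians of all features were likewise highest there, at 0.132, 0.065 and 0.183 on the WK2 arrays. Reg3g and Bpifa1, secreted proteins of airway epithelium, were at 0.68 ± 0.21 and 0.38 ± 0.14 (SE; limma, adjusted p = 0.0856 and 0.108). Of 11 mature neuron markers 7 were higher and 4 lower with a median of 0.13 and none past the test. Gng13 at 0.52 ± 0.15 and Omp, the gene used to pick the samples, at 0.60 ± 0.19 had the smallest p (limma, adjusted p = 0.0779 and 0.0854). Without overlap 3 were higher and 3 lower, against 23.8% and 13.8% of all features, and Adcy3 lay lowest at -0.58. Of 5 horizontal basal cell markers 3 were higher and 2 lower with a median of 0.24 and none past the test. The keratins Krt14 at 0.66 ± 0.15 and Krt5 at 0.60 ± 0.20 had the smallest p (limma, adjusted p = 0.0551 and 0.0974), and the lowest difference in the list was -0.46. Of 6 erythroid markers 3 had a probe, with a median of 0.36 and none past the test; Hbb-b1 was at 0.79 ± 0.40 and Slc4a1 at 0.36 ± 0.69.

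Bone and cartilage markers had the median farthest from 0 among the 8 cell lists: 6 of 7 had a probe, 5 were lower and 1 higher in WK2 with a median of -1.02, and their medians by array ran from -0.29 to 0.35 in the controls, -0.82 to -0.56 in D1 and -1.11 to -0.78 in WK2. The background downward was 1.18% of all features. Past the test were Dmp1, a bone matrix protein, at -1.53 ± 0.23 (SE; limma, adjusted p = 0.0352), and Col9a1, a cartilage collagen, at -0.92 ± 0.16 (limma, adjusted p = 0.0408). With only the 2 groups fitted both calls were lost (adjusted p = 0.112), and with 1 array left out Col9a1 passed only without WK2 replicate 1 and Dmp1 only without that array or control replicate 2. The part of these cell types in the enzymes' values was not tested.

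The enzymes depend on partners that supply electrons, haem and cofactors, and of 19 such genes 17 were measured. In WK2 10 were higher and 7 lower, with a median of 0.07 and none past the test. Alas1, the first enzyme of haem synthesis, gave 89766, 96032 and 92412 in the controls, 105634, 117801 and 107657 in D1, and 66354, 75338 and 61363 in WK2. The 3 groups did not overlap, D1 being highest and WK2 lowest, with a WK2 difference from control of -0.46 ± 0.14 (SE; limma, adjusted p = 0.0781). Cyb5r3, the reductase of cytochrome b5, lay below the controls in WK2 without overlap, at -0.46 ± 0.15 (limma, adjusted p = 0.0968).

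Of 16 sensors and regulators of the pathway 8 were higher and 8 lower in WK2, with a median of -0.03 and none past the test. Rxra, the partner of the nuclear receptors that induce P450s, was at -0.59 ± 0.21 (SE; limma, adjusted p = 0.107). Nfe2l2, which encodes NRF2, was at -0.27 ± 0.17 and Nr3c1, the glucocorticoid receptor, at 0.08 ± 0.21. Of 12 NRF2-linked antioxidant genes 10 were measured, 7 higher and 3 lower, and 1 rose past the test. The background upward was 0.432%. That gene was Prdx1, a peroxide-removing enzyme, with 3405, 3441 and 2510 in the controls, 4495, 4545 and 3689 in D1, and 5036, 6511 and 9159 in WK2. The groups did not overlap, and the WK2 difference was 1.11 ± 0.23 (SE; limma, adjusted p = 0.0493). Its call held in 9 of 21 alternatives and was lost with only the 2 groups fitted (adjusted p = 0.112), under the replicate block (0.105) and without any single array other than WK2 replicate 1, while the difference ran from 0.88 to 1.31.

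Export of conjugates was read from 12 transporters, of which 5 were higher and 7 lower in WK2 with a median of -0.13 and none past the test. Abcc5 lay lowest, at -0.65 ± 0.16 (SE; limma, adjusted p = 0.0586), and Abcc2, the canalicular exporter of glucuronide and glutathione conjugates, highest, at 0.65 ± 0.19 (limma, adjusted p = 0.0781).

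A further 112 genes of the same enzyme families, taken by symbol, gave a comparison for the 44. In WK2 78 were higher and 34 lower with a median of 0.20, next to 0.21 for the 44, and 35 were higher and 9 lower without overlap, against 23.8% and 13.8% of all features. Of the 112, 1 passed the test, where 1.61% of all features passed in either direction and 1.18% downward. It was Aldh4a1, a mitochondrial proline-pathway dehydrogenase, which fell by 1.07 ± 0.22 on the log2 scale (SE; limma, adjusted p = 0.0489). Its call held in 8 of 21 alternatives, with differences from -1.26 to -0.77, and was lost with only the 2 groups fitted (adjusted p = 0.112), under the block (0.105) and without any single array. In D1 0 of the 112 passed (limma), with 71 higher and 41 lower (63.4% higher, with 56.6% of all features). At an unadjusted p under 0.05, 2 of the 112 and 2% of all features were counted.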

How the data were processed

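RNA of olfactory mucosa was hybridised to 9 one-colour arrays, 3 per group. Trizol extraction, an integrity number of 7 or more, and amplification with Cy5 labelling of 1 µg are recorded per the labels' protocols. The authors deposited intensity values of 26423 probes on a linear scale; how they were background-corrected and scaled is not given in the sources used here. Array medians were 1202 to 1447, 8 to 18 probes per array lay below 0, and within groups arrays correlated at 0.977 to 0.993; the number of arrays limits the precision. No detection calls or batches were used.

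Probes were named through the platform annotation, updated by gene ID in RefSeq's GRCm38.p6 table: 21876 probes had 1 symbol, 4547 none and 0 several. The brightest probe by mean of 9 arrays stood for a gene, and probes with no symbol were kept as features (23631 in all). Values were taken as log2(intensity + 50), and all differences are on that scale, which understates changes of dim probes. limma 3.58.1 (R 4.3.3; lmFit, contrasts, eBayes) was fitted over all 9 arrays with Benjamini-Hochberg adjustment over all features, at a threshold of 0.05, and was tested on simulated data. Single ratios were tested by exact permutation, and the smallest p that 3 against 3 allows is 0.1.

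Enzymes given array by array were those past the test, the 8 of smallest p in each comparison and a fixed list of 14. Of these 14, Cyp2a5, Cyp2a4, Ugt2a1 and Por had no probe and could not be shown. From the other lists came the genes past the test or else the 2 of smallest p. Further genes were named after their values had been seen (Ahr, Ahrr, Arnt, Aox2, Nfe2l2, Nr3c1, Nqo1, Gstm6, Sult1d1, Adcy3, Krt8). The members, lists and tests were chosen with earlier results of these data known. Normalization, constant, filter, probe choice, moderation, array weights, block, groups fitted, threshold and left-out arrays were varied.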

Additional observations from a re-analysis of the deposited data

How the results depend on the processing

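Against a count of 1 enzyme past the limma test in WK2 against control, quantile normalization gave 2, median centring 2, array weights 6 and an adjusted p under 0.1 gave 7, while fitting only the 2 groups compared gave 0. Leaving out 1 array gave 0 to 3, and leaving out WK2 replicate 3 with control replicate 2, added after seeing the data, gave 0. The replicate block gave 0; same-numbered arrays deviated with correlations from -0.28 to 0.14, so the numbers were not taken to pair samples. The median WK2 difference from control of 0.21 became 0.045 under quantile normalization, 0.107 with centring, 0.103 with array weights and 0.111 under cyclic loess. It was 0.104 without WK2 replicate 3 and control replicate 2, and ran from 0.033 to 0.293 with 1 array left out. Against D1 the median of 0.25 became 0.088 under quantile normalization, 0.099 with array weights, 0.128 under cyclic loess (added after seeing the data) and 0.102 without WK2 replicate 3 and control replicate 2, and ran from 0.102 to 0.281 with 1 array left out. D1 against control kept 0 calls in every alternative run (limma). Over all features the 380 WK2 calls became 1419 under quantile normalization, 1545 with centring, 131 and 777 with constants of 16 and 500, 576 without the dimmest 25%, 257 with trend and robust moderation, 2738 with array weights, 682 under cyclic loess, 1 with the block and 0 with only the 2 groups, and 1 to 953 with 1 array left out. The overall WK2 median of 0.14 became 0.01 under quantile normalization, 0.04 with centring and 0.03 under cyclic loess. The cause of these changes was not tested. Cyp1a1 lost its call under the block (adjusted p = 0.105) and with only the 2 groups (adjusted p = 0.112). Of 2898 enzyme differences recomputed over all alternatives and comparisons, 175 had the opposite sign to the reported one. Several alternatives leave a log2 difference as it was by construction: the threshold, the moderation, the block, the filter and leaving out an array of a group not compared. The number of changed signs is low in part for that reason, and so are the ranges given for single enzymes narrow in part.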
